A study of Mus musculus with 4 samples.

Results

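Chromatin accessibility was examined at 10 genes of the histone H3.3 system in bone marrow-derived macrophages (BMDMs): the 2 genes that encode H3.3, H3f3a and H3f3b, and 8 genes for the proteins that carry H3.3 or place it on DNA, Hira, Ubn1, Ubn2, Cabin1, Asf1a, Asf1b, Daxx and Atrx. The genes were chosen by name, out of 21951 protein-coding genes in the GENCODE vM21 annotation of mm10. A peak was assigned to a gene when it overlapped the gene body or the 10 kb on either side. The study examined the role of H3.3 in the development of myeloid cells, and at these genes the data address whether the loci of the remaining deposition machinery differed once H3.3 was deleted.

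All 4 libraries came from mice with a C57BL/6 background, 8 to 10 weeks old and of both sexes in the study as a whole, that carried floxed alleles of both genes (H3f3a fl/fl and H3f3b fl/fl). The 2 WT libraries had no Cre, and the 2 H3.3cKO libraries (cKO below) also carried LysM cre/cre. LysM-Cre is a knock-in at the lysozyme gene Lyz2 and is active in myeloid cells, so Cre also disrupts Lyz2, and no library with Cre and without floxed genes was analysed here. Marrow was grown with 10% serum and 20% medium conditioned by L929 cells, untreated, for 6 to 8 days per the labels. The results text of the study names day 7 for ATAC-seq. In the floxed alleles, loxP sites surround exon 2 of H3f3a and exons 1 to 4 of H3f3b. Deletion of H3f3b was described as partial in some cKO samples. ATAC-seq inserts adapters into open DNA with the transposase Tn5, and each library here is a list of peaks. The replicate libraries were labelled as biological replicates.

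Histone H3.3 is a variant of H3 that is made throughout the cell cycle and replaces H3 outside DNA replication, in active genes, enhancers and telomeres. Newly made H3.3 with H4 is bound by ASF1, which exists as the paralogues ASF1A and ASF1B. The HIRA complex, built from HIRA, a ubinuclein (UBN1 or UBN2) and CABIN1, receives H3.3 mainly from ASF1A and deposits it at genes and gaps in nucleosome coverage, whereas DAXX with the chromatin remodeller ATRX deposits it at telomeres and repeats. H3f3a and H3f3b encode the same protein from differing DNA. The coding parts of exon 2, which begin with the start codon of each gene, are shown to make that visible. They are read 5′ to 3′ on the reverse strand of mm10, from chr1:180811799-180811926 for H3f3a and chr11:116023882-116024009 for H3f3b, with capitals at the bases that differ between them.
H3f3a exon 2: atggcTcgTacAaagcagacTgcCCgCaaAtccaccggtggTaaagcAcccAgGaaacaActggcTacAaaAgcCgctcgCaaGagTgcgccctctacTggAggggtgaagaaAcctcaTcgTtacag
H3f3b exon 2: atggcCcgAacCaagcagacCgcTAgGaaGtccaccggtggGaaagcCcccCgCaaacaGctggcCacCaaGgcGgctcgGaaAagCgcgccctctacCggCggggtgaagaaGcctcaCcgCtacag
The 2 stretches have the same length of 128 bases and differ at 25 of them, so that 80.5% of the bases are identical.

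The regions near the chaperone genes on which the following results turn are shown next, as RefSeq sequence of mm10. All but the last are on the forward strand, and capitals mark matches to the motifs named later. The first is the region of Hira with peaks in cKO only, at chr16:18958404-18958635. The next is the 300 bases at the summit of a Ubn2 region with peaks in WT only (chr6:38500164-38500463). Then come the Asf1b region with peaks in WT only (chr8:83977640-83977936) and 300 bases at the summits of a pair of Cabin1 intronic regions that were lower in cKO (chr10:75667392-75667691 and chr10:75676860-75677159). The last 2 are promoter stretches read along the gene, Ubn2 at chr6:38433675-38433924 on the forward strand and Atrx at chrX:105929404-105929622 on the reverse strand.
Hira region: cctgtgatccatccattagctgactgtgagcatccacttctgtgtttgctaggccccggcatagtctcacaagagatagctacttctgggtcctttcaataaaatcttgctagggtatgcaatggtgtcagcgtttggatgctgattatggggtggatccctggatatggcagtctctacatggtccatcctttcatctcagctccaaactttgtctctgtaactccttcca
Ubn2 region: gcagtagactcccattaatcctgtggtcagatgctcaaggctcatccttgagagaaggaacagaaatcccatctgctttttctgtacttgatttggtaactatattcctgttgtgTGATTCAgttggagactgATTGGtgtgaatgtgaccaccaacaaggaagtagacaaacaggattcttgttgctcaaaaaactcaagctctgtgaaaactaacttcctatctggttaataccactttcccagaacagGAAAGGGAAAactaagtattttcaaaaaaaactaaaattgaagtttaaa
Asf1b region: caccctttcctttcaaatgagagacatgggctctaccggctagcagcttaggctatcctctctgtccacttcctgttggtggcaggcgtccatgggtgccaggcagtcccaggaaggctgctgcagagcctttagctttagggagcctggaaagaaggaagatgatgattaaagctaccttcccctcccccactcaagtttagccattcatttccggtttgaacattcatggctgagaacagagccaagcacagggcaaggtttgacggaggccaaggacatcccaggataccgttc
Cabin1 region 1: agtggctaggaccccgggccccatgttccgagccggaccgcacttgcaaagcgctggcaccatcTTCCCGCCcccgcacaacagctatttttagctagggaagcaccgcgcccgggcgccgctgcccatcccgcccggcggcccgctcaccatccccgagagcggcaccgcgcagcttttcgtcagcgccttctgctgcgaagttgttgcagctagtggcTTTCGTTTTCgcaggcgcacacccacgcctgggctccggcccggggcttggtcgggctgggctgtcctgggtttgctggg
Cabin1 region 2: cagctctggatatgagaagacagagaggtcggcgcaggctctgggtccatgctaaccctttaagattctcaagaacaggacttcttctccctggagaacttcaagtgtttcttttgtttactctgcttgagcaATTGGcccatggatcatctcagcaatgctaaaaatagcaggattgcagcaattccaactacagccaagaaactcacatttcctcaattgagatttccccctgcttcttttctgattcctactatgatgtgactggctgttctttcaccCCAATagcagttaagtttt
Ubn2 promoter: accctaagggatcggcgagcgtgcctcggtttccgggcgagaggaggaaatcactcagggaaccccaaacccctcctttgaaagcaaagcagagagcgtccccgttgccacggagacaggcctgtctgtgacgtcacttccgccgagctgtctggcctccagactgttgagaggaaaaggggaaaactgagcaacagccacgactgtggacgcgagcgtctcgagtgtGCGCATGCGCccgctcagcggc
Atrx promoter: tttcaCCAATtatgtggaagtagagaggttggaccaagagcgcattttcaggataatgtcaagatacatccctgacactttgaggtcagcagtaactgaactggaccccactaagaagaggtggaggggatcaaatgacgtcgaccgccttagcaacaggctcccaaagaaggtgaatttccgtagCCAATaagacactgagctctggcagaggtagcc

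Peaks of the 4 lists that overlapped were joined into 71243 regions. A region is called shared here if every library had a peak in it, gained if only the 2 cKO libraries did, lost if only the 2 WT libraries did, and partial otherwise. The lists held 51955 to 64939 peaks, and the longer list of each genotype was that of replicate 2. Strength is given as the percentile of a peak's area among all peaks of its own list, so that 0 is the weakest and 100 the strongest peak. Read depth is unknown, and a missing peak means only that the site was below the limit of the peak caller. BMDM identity was checked on promoters: 7 of 8 macrophage genes had a promoter peak in all 4 libraries, the exception being Spi1 with none. Of these 7, both cKO values lay below both WT values at 3, against 33.7% of all shared promoters of protein-coding genes. They lay above at 1 (Cd68), against 20.8%, and overlapped at 3. Lower in cKO were Csf1r, the receptor for the growth factor of macrophages (73.7 and 85.3 in WT, against 56.4 and 61.4 in cKO), the receptor gene Mertk (89.3 and 92.8 in WT, against 73.9 and 79.1 in cKO) and Lyz2. The mean over the 7 was 79.3 and 84.3 in WT, against 68.8 and 72.4 in cKO. This mean takes in Lyz2, which carries the Cre insertion and had the widest fall of the 7, so it does not rest on identity markers alone. The part of this difference in the lower regions of the H3.3 and chaperone genes was not tested. Among genes of other cells, Cd3e, Cd79a, Ncr1 and Hba-a1 had none. The endothelial and myeloid gene Pecam1 had one in all 4 (percentiles 61.4 to 69.3), the neutrophil gene Ly6g in cKO only (30.3 and 17.8) and the epithelial gene Epcam in WT replicate 2 only (1.04). The part of other cells in the results below was not tested. The Lyz2 promoter, where Cre is inserted, was at 96.1 and 99.0 in WT, against 57.4 and 59.4 in cKO. The peaks mix the alleles and cells of a culture, so that fewer cells with open DNA and less open DNA per cell cannot be told apart.

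The 10 genes held 44 regions, of which 32 were shared, 7 partial, 1 gained and 4 lost. The gained share of 2.27% compares with 3.72% of all regions and 3.32% of regions in the windows of protein-coding genes. The lost share of 9.09% compares with 7.25% and 7.22%. By gene, Hira alone had a gained region (10% of the genes, against 11.1% of the 16344 protein-coding genes with a region), and H3f3a, Ubn2 and Asf1b had lost regions (30%, against 21.8%). With so few genes, these shares were near the background. The gained and lost regions were narrow and weak, with a median width of 326 bp and percentiles from 5.02 to 51.9, whereas the shared regions of these genes had a median width of 795 bp. The counts changed when single libraries were left out. Leaving out WT replicate 2 gave 2 gained regions, leaving out cKO replicate 1 gave 3, and leaving out WT replicate 1 gave 7 lost regions. The rule is looser with fewer libraries, so these counts tend to rise by construction.

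**Figure D1:**
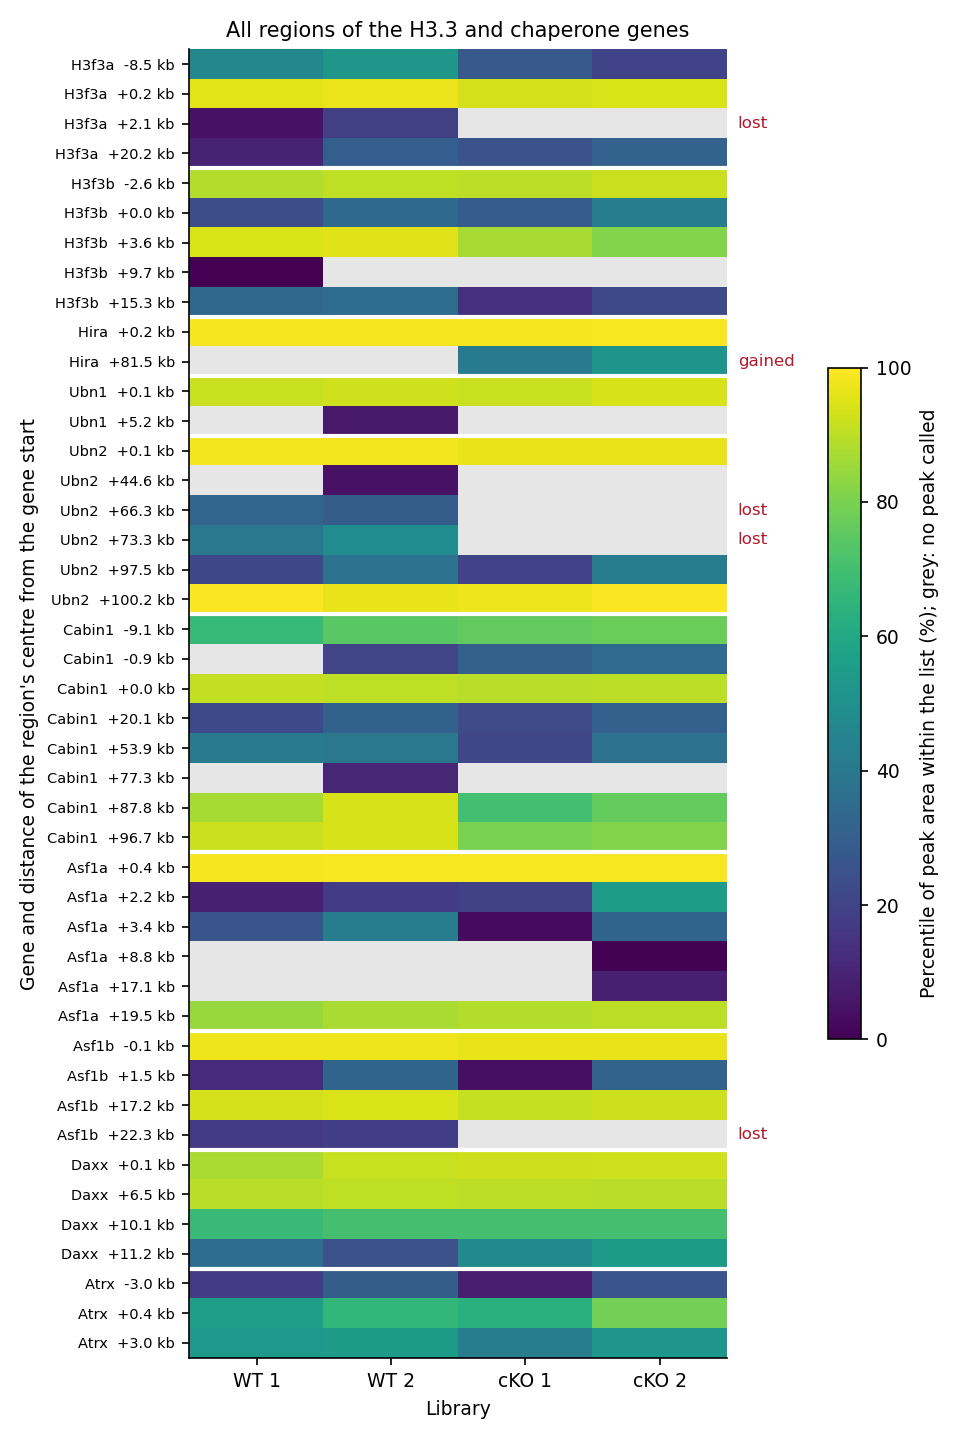
Heat map of the percentile of peak area in each library (columns) for all 44 regions of the 10 genes (rows, with the distance in kb of the region's centre from the gene start), with grey where no peak was called. The strongest rows are mostly promoters, and the 5 regions marked gained or lost lie between percentiles 5.02 and 51.9.

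No promoter of the 10 genes was gained or lost. Of the 12 regions at a start site of one of these genes in the basic annotation, 11 were shared and 1, a side region of Cabin1, was partial. The 7 regions at promoters of neighbouring genes only were shared as well. The gained and lost shares of all promoters were not computed, so these counts do not show whether the promoters of the 10 genes are unusual. The 5 gained and lost regions lay among the 25 regions away from promoters, 4 in gene bodies and 1 in a flank. In the shared regions, both cKO percentiles exceeded both WT percentiles in 5 of 32 (15.6%, against 22.2% of all shared regions), and both were below in 12 (37.5%, against 35.1%). The median difference, cKO minus WT, was -0.098 percentage points for the 32 regions and -1.10 for all 44820 shared regions.

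Tested with limma on within-list ranks, 0 of the 32 shared regions passed an adjusted p of 0.05, with adjusted p from 0.108 to 0.992. This held for 0 of all 44820 shared regions (0%, either direction), although 22.4% had an unadjusted p below 0.05 and 6 of the 32 did. The call depended on the scale. With limma on quantile-normalized log2 area, 5 of the 32 passed, 2 higher and 3 lower in cKO, against 15.6% and 15.5% of all shared regions (31.1% in either direction). The 5 regions belonged to H3f3b and Cabin1. With lists of equal length 1 was higher and 3 were lower, against 12.1% and 11.8%. On summed area 1 was higher and 2 were lower, against 12.7% and 12.3%.

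**Figure D2:**
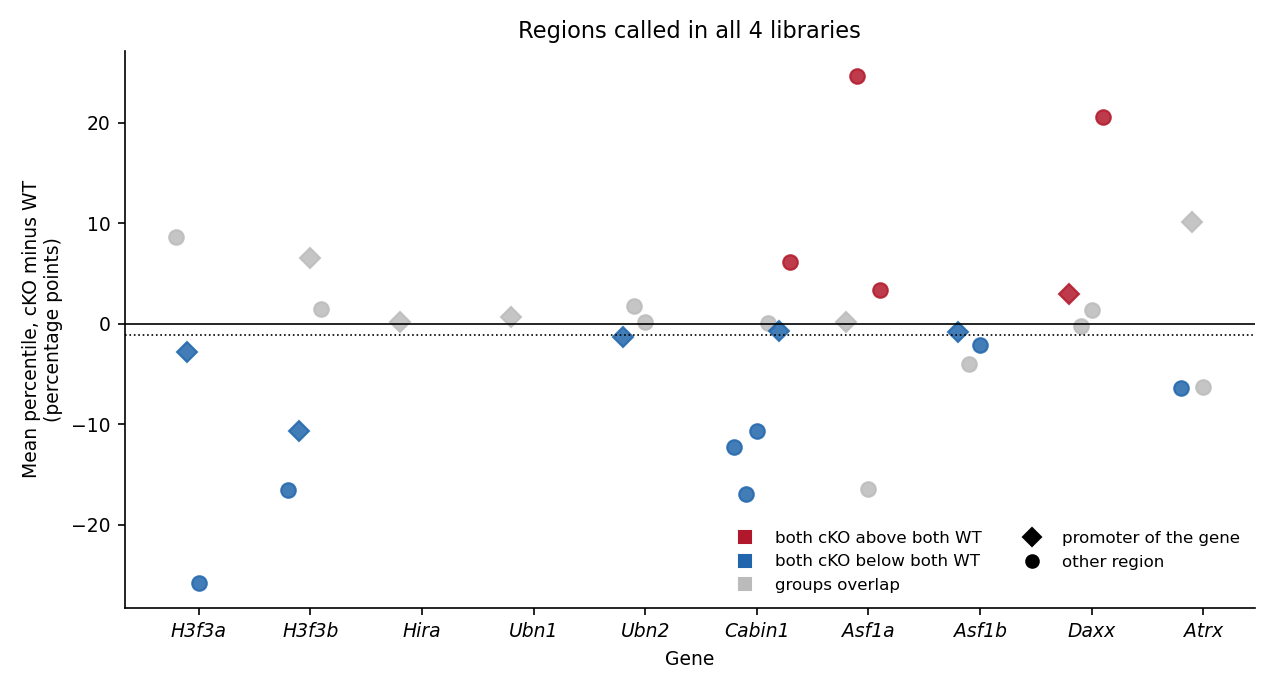
Difference in mean percentile of peak area, cKO minus WT (percentage points), for the 32 regions called in all 4 libraries, by gene. Diamonds are promoters of the gene and circles other regions, colours show whether the 2 cKO values lie above or below both WT values, and the dotted line is the median of all shared regions (-1.10). Cabin1, H3f3b and H3f3a hold the low points outside Asf1a, and the highest points are regions near Asf1a and Daxx.

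The H3.3 genes themselves were examined first, because they check the genotypes. H3f3a (ENSMUSG00000060743.12, chr1:180800832-180813943, reverse strand) had 4 regions. The weak region over the floxed exon 2 (chr1:180811715-180812055, percentiles 5.02 and 19.1 in WT) was lost in cKO. It took in the whole stretch printed above. It was not a lost region with lists of equal length, where no library kept it. The promoter region of H3f3a, upstream of the floxed exon (chr1:180812969-180814512), was at 96.0 and 97.2 in WT, against 93.4 and 94.1 in cKO. Both cKO values lay below both WT values, by 2.83 percentage points on average (limma, adjusted p = 0.236). On the log2 area scale the difference was -0.28 ± 0.080 (SE, adjusted p = 0.0573 by limma), so it did not pass there either.

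A region upstream of H3f3a was lower in cKO by a wider margin, without passing. At chr1:180822214-180822764, centred 8.5 kb before the gene start in no annotated promoter, the percentiles were 46.7 and 52.8 in WT, against 27.8 and 20.2 in cKO. The groups did not overlap, and the difference of -25.8 percentage points was the most negative among the 32 shared regions (limma, adjusted p = 0.115, and 0.0574 on log2 area). The region 20.2 kb past the start, beyond the 3′ end, had overlapping values of 9.74 and 29.8 in WT, against 25.5 and 31.3 in cKO.

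H3f3b (ENSMUSG00000016559.14, chr11:116021912-116027962, reverse strand) starts from 2 sites in the annotation, and the differences at them had opposite signs. The main region (chr11:116023771-116024892) covers the start site of the short transcript H3f3b-201 at position 116024504, with 734 bp inside that transcript and 388 bp upstream of it. It thus runs into the floxed exons, and the printed part of exon 2 lies within it. Its peak areas were 2653 and 3163 in WT, against 1888 and 1634 in cKO, and its percentiles were 94.2 and 95.5 against 87.0 and 81.4. Both cKO libraries were lower, yet both still had a strong peak across the region. On the rank scale the difference was -0.62 ± 0.13 normal score units (SE, limma, adjusted p = 0.121). On log2 area it was -0.71 ± 0.16 (SE, limma, adjusted p = 0.0339), and with lists of equal length the adjusted p of limma was 0.0491. Per base pair of the peak, the percentiles were 88.1 and 91.2 in WT, against 65.6 and 48.1 in cKO.

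The other start site of H3f3b, at exon 1 of H3f3b-202 and upstream of the floxed exons, had the region chr11:116027762-116028173. Percentiles were 23.7 and 34.3 in WT, against 28.7 and 42.5 in cKO, so that the groups overlapped, and replicate 2 was the higher one in each. The difference was 6.56 percentage points (limma, adjusted p = 0.603). On log2 area it was 0.33 ± 0.085 (SE, limma, adjusted p = 0.0446), while without cKO replicate 2 the percentile difference was -0.338. With all 4 libraries the difference was also negative on −log10 p and per base pair, while it passed as higher with lists of equal length (limma, adjusted p = 0.0293) and on summed area (limma, adjusted p = 0.0422). The sign at this weaker site thus changed with the library and with the measure.

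**Figure D3:**
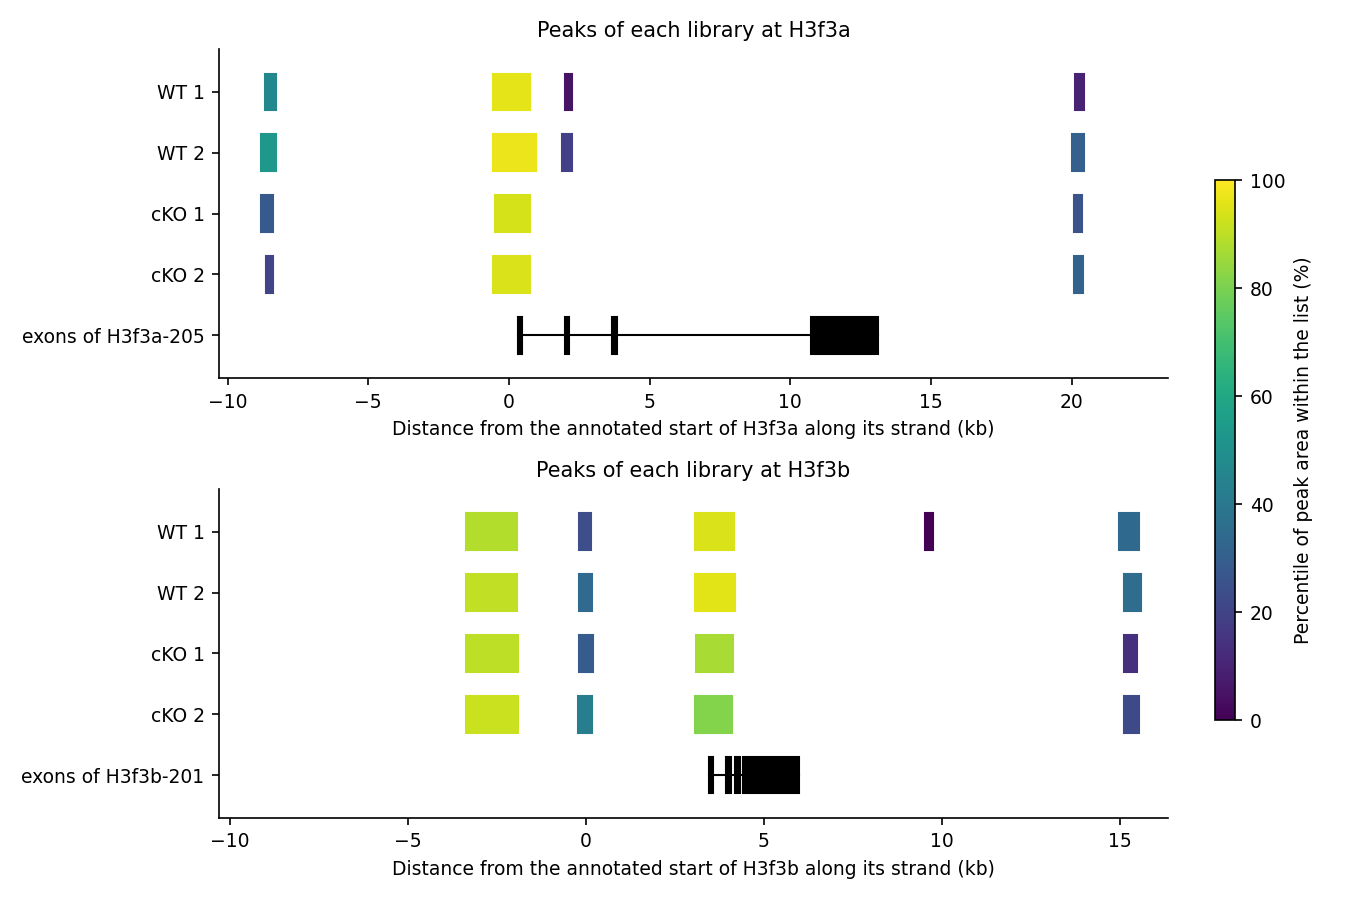
Peaks of the 4 libraries (bars, coloured by percentile of peak area) along H3f3a and H3f3b, with the distance in kb from the annotated gene start and the exons of 1 transcript of each gene in black. The small WT peaks at exon 2 of H3f3a have no counterpart in cKO, and the peaks over the first exons of H3f3b are present in all 4 libraries with lower percentiles in cKO.

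HIRA, the subunit that gives the complex its name and binds the ubinuclein and CABIN1, showed almost the same promoter peak in both genotypes. The promoter region of Hira (ENSMUSG00000022702.16, chr16:18877037-18970309, forward strand), at chr16:18876081-18878420 and shared with the promoter of Mrpl40, was at 98.7 and 98.8 in WT, against 98.7 and 99.0 in cKO. The values overlapped and differed by 0.132 percentage points (limma, adjusted p = 0.823). On log2 area the difference was 0.065 ± 0.075 (SE, limma, adjusted p = 0.542). Hira held the only gained region of the 10 genes, the 232 bp intronic region printed above, 81.5 kb from the gene start. It was at 40.8 and 51.9 in cKO and had no peak in WT. It stayed gained with lists of equal length, and among peaks above the median of their list it was partial, as only cKO replicate 2 passed that limit.

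UBN1 and UBN2 are alternative partners of HIRA that contact H3.3. The Ubn1 promoter (ENSMUSG00000039473.8, chr16:5050057-5086289, forward strand), at chr16:5049249-5051071 with the promoter of Glyr1 on the opposite side, was at 91.7 and 92.6 in WT, against 91.8 and 93.8 in cKO. These values overlapped (limma, adjusted p = 0.817). Apart from it, Ubn1 had a weak peak over an exon in WT replicate 2 only (percentile 6.88).

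Ubn2 (ENSMUSG00000038538.17, chr6:38433950-38524825, forward strand) was the chaperone gene with the most lost regions. Its promoter region (chr6:38433113-38435074) was at 98.2 and 98.1 in WT, against 96.8 and 96.9 in cKO. The groups lay apart, but the difference of -1.30 percentage points did not pass (limma, adjusted p = 0.265). The intronic lost region (chr6:38500113-38500438) was at 32.5 and 29.5 in WT. A further lost region in the last exon of a long Ubn2 transcript (chr6:38507072-38507432) was at 40.2 and 48.8 in WT. Both stayed lost with lists of equal length, and no library kept them among peaks above the median area. Downstream, the region at 97.5 kb had overlapping values (21.5 and 37.2 in WT, 20.3 and 42.1 in cKO).

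CABIN1 is the remaining subunit of the HIRA complex, and its gene held the pair of lower regions that passed on the most scales. In Cabin1 ( ENSMUSG00000020196.10, chr10:75646112-75764341, reverse strand), the intronic region chr10:75666929-75668372 was at 91.8 and 93.8 in WT, against 79.8 and 81.4 in cKO. The next, chr10:75675613-75677514, was at 86.5 and 93.8 in WT, against 70.0 and 76.5 in cKO. In both, all cKO values lay below all WT values. On ranks neither passed (limma, adjusted p = 0.108 and 0.154). On log2 area the first differed by -0.70 ± 0.081 and the second by -0.85 ± 0.16 (SE, limma, adjusted p = 0.00838 and 0.0216). Both also passed with lists of equal length (limma, adjusted p = 0.0167 and 0.0435) and on summed area (0.0179 and 0.0245 by limma). The first region overlaps the first exon of a processed transcript of Cabin1 in the full annotation, so that it is intronic only for the coding transcripts. Promoters were taken from the basic annotation, so this region is not counted as one here.

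The promoter of Cabin1 (chr10:75763981-75764743) was alike in both genotypes, at 90.7 and 90.5 in WT, against 89.6 and 90.2 in cKO (limma, adjusted p = 0.832). A side region at 75765052 to 75765490, just upstream, had no peak in WT replicate 1, and was at 20.7 in WT replicate 2 and at 30.8 and 34.8 in cKO. Of the weaker intronic regions, that at 75710267 to 75710530 was at 40.6 and 39.6 in WT, against 21.1 and 37.8 in cKO, and that at 75744097 to 75744343 at 22.4 and 30.9 in WT, against 22.9 and 30.6 in cKO. The last pair of values is nearly the same in the 2 genotypes, replicate by replicate.

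ASF1A hands H3.3 and H4 to HIRA, and ASF1B is the form linked to proliferating cells. The Asf1a promoter (ENSMUSG00000019857.7, chr10:53596757-53609225, forward strand), at chr10:53596247-53598061 with that of Mcm9, was at 98.6 and 99.0 in WT, against 98.8 and 99.2 in cKO (limma, adjusted p = 0.761). Just inside the gene, at chr10:53598758-53599188, the values were 8.66 and 17.2 in WT, against 19.8 and 55.4 in cKO. This difference of 24.7 percentage points was the most positive of the 32 shared regions, with cKO replicate 2 far above cKO replicate 1 (limma, adjusted p = 0.295). At chr10:53600055-53600299 the values were 26.2 and 41.8 in WT, against 2.91 and 32.2 in cKO. These overlapped, and this region passed as lower only without cKO replicate 2 (limma, adjusted p = 0.0199), a setting under which 7.02% of all shared regions did so. A downstream region (chr10:53615745-53616685) was at 84.7 and 87.1 in WT, against 88.6 and 90.0 in cKO, higher in both cKO libraries (limma, adjusted p = 0.416). The 2 partial regions of Asf1a had peaks in cKO replicate 2 only, at 0.563 and 8.80.

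The Asf1b promoter (ENSMUSG00000005470.8, chr8:83955507-83970197, forward strand), at chr8:83954897-83955954 with that of Gm10644, was at 97.4 and 97.5 in WT, against 96.6 and 96.5 in cKO. The cKO values were the lower ones, with a difference of -0.860 percentage points (limma, adjusted p = 0.479). The intronic region chr8:83956909-83957154 followed the replicate number rather than the genotype, at 11.9 and 32.3 in WT, against 4.28 and 32.0 in cKO. The lost region printed above, 22.3 kb past the start and beyond the gene, was at 16.9 and 18.7 in WT, and with lists of equal length it was partial.

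DAXX binds H3.3 with H4 directly. The Daxx promoter (ENSMUSG00000002307.16, chr17:33909414-33915590, forward strand), at chr17:33908673-33910303, was the only one of the 8 chaperone promoters with both cKO values above both WT values. It was at 87.4 and 91.5 in WT, against 92.2 and 92.7 in cKO, a difference of 2.97 percentage points that was smaller than the gap between the 2 WT libraries (limma, adjusted p = 0.452). In WT replicate 1 the region was split into 2 peaks, and per base pair of the peak the difference was -12.0. On that measure both cKO values were instead above both WT values at Hira and Asf1a. Hira was at 67.4 and 69.9 in WT, against 72.8 and 79.8 in cKO. Asf1a was at 83.8 and 88.4 in WT, against 89.6 and 93.9 in cKO. Per base pair, 0 shared regions of the 10 genes passed limma as higher. A region 11.2 kb past the start (chr17:33920198-33921024), beyond the gene, was at 35.7 and 24.7 in WT, against 47.4 and 54.3 in cKO. There the groups did not overlap, by 20.6 percentage points on average (limma, adjusted p = 0.164), and the difference on log2 area was 0.84 ± 0.25 (SE, limma, adjusted p = 0.0621), which did not pass.

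ATRX is the remodelling ATPase that works with DAXX. Its gene (Atrx, ENSMUSG00000031229.16, chrX:105797615-105929403, reverse strand) had the weakest peak of the 10 when the strongest promoter region of each gene was compared. The region chrX:105928287-105929716 was at 56.0 and 66.0 in WT, against 63.5 and 78.9 in cKO. The groups overlapped, and replicate 2 was higher in each. The mean difference of 10.2 percentage points did not pass (limma, adjusted p = 0.447, and 0.0847 on log2 area). Both WT libraries had 2 peaks there and both cKO libraries 1, and per base pair the difference was -2.52. The intronic region chrX:105926095-105926663 was at 53.1 and 54.6 in WT, against 42.4 and 52.6 in cKO, and the upstream region chrX:105932259-105932581 at 17.7 and 29.7 in WT, against 8.49 and 26.3 in cKO.

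Because Atrx is X-linked, loci of the inactive X chromosome were read beside it. In the window of Firre, an X-linked RNA gene, WT replicate 1 and cKO replicate 1 each had a peak in 1 of 23 regions, while WT replicate 2 had peaks in 21 and cKO replicate 2 in 23. The Xist promoter had a peak in WT replicate 2 and cKO replicate 2 only (52.4 and 47.6). The replicate 2 libraries therefore stood apart in both genotypes at these loci. The labels do not give the sex of the animals, and the part of this split in the Atrx values was not tested. Chromosome X held 2.44% to 2.71% of the peaks of a list.

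**Figure D4:**
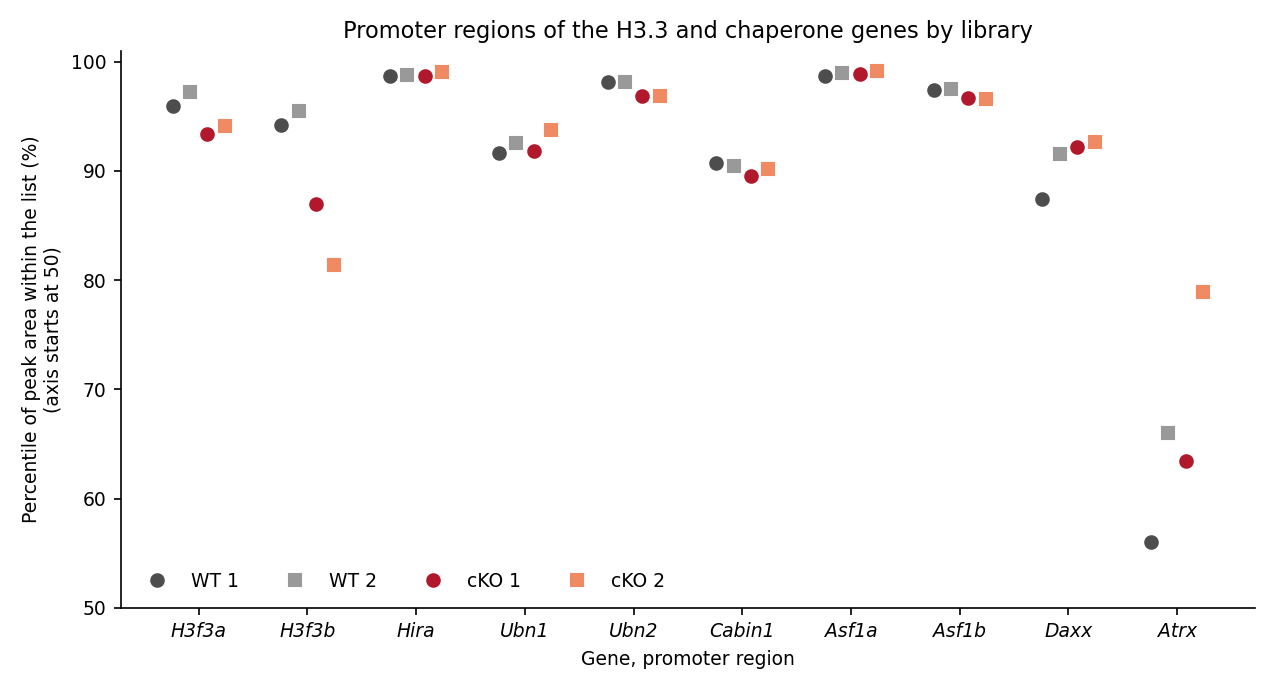
Percentile of peak area of the promoter region of each gene in the 4 libraries, where circles are replicate 1 and squares replicate 2, WT in grey and cKO in red, on an axis that starts at 50. H3f3b shows the widest gap between genotypes, and Atrx is the lowest promoter with the widest scatter.

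Set side by side, with the strongest promoter region of each gene, 0 of 10 passed limma on ranks. On log2 area 1 of 10 passed, the main region of H3f3b, as lower in cKO, against 31.1% of all shared regions in either direction. The other start site of H3f3b, not among these 10 regions, also passed there, as higher. The median difference over the 10 promoters was -0.281 percentage points, and over 10956 shared promoters of protein-coding genes it was -0.432 with quartiles of -3.38 and 1.46. By percentile of peak area, both cKO values lay above both WT values at 1 promoter of 10 (Daxx), against 20.8% of all shared promoters. They lay below at 5 (H3f3a, H3f3b, Ubn2, Cabin1 and Asf1b), against 33.7%. Per base pair they lay above at Hira and Asf1a and not at Daxx. A higher promoter peak in cKO that passed the test was thus seen at none of the HIRA, ASF1 and DAXX-ATRX genes on ranks or on log2 area. The rank test called 0 of all 44820 shared regions, so on ranks it cannot decide this for any gene. Without a call, differences remain possible, and not only small ones, as the 10.2 percentage points at Atrx did not pass.

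Among the genes, promoter levels were compared per base pair of the peak. The mean percentile over the 4 libraries was highest for Asf1b at 98.7, followed by Cabin1 at 96.7, Asf1a at 88.9 and H3f3a at 80.3. Then came Ubn2 (73.3), H3f3b (73.2), Hira (72.5), Daxx (64.2) and Ubn1 (58.6), and Atrx was last at 19.1. The ranges over libraries did not overlap between neighbours from Asf1b down to H3f3a, nor between Ubn1 and Atrx. They overlapped between all neighbours from H3f3a to Ubn1, so the order there is not fixed by these libraries. The place of H3f3b depended on genotype, as its mean of 89.6 in WT ranked between Cabin1 and Asf1a and its mean of 56.9 in cKO ranked above Atrx alone. The next largest move was that of Hira, from place 8 in WT (68.6) to place 5 in cKO (76.3).

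The sequences were searched on both strands for 6 motifs: AP-1 (TGANTCA), PU.1 (GAGGAAGT), the core of the interferon-stimulated response element (ISRE core), E2F (GGCGGGAA), the CCAAT box (CCAAT) and NRF1 (GCGCATGC). In RefSeq promoters of 300 bases, all 10 genes were found, with 12 promoters of which 3 belong to Daxx. A CCAAT box was present in 8 of the 12 (66.7%), against 37.4% of all 32851 promoters. The 8 belong to 8 genes, with 1 of the 3 Daxx promoters among them, and Hira and Ubn2 had none. H3f3b, Asf1b and Atrx each had 4 matches. NRF1 was found only in Ubn2, with 2 overlapping matches on opposite strands in the printed promoter (1 of 12 promoters, against 2.71% of all promoters). AP-1, PU.1, the ISRE core and E2F were found in none of the 12, against 7.81%, 3.20%, 3.44% and 2.19%.

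Of the printed regions outside promoters of the basic annotation, the Ubn2 region held an AP-1 match, an ISRE core and a CCAAT box. Cabin1 region 2 held 2 CCAAT boxes. Cabin1 region 1, at 68.3% G and C, held an ISRE core and the only E2F match in the summit windows of the 44 regions. The printed Hira and Asf1b regions, which are the peak regions and not windows of 300 bases at the summit, held none of the 6. In such windows each had 1 CCAAT box. In windows of 300 bases at the summits of the 44 regions, AP-1 was present in 7 (15.9%, against 19.1% of all regions), PU.1 in 2 (4.55%, against 11.8%), the ISRE core in 5 (11.4%, against 5.26%) and the CCAAT box in 25 (56.8%, against 32.3%). A match is a description of the letters and does not show that a factor was bound.

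To place the 10 genes in a wider set, 27 other genes were read the same way. The set covers H3-H4 chaperones, factors of H3.3 deposition, and related chromatin and nuclear body proteins. Among them are the genes of CAF-1, which places H3.1 behind replication forks, and of FACT. The 27 genes held 136 regions, of which 98 were shared, 26 partial, 7 gained (5.15%, against 3.72% of all regions) and 5 lost (3.68%, against 7.25%). On ranks, limma called 0 of the 98, with 17 (17.3%, against 22.4%) below an unadjusted p of 0.05. On log2 area it called 16 as higher and 8 as lower, against 15.6% and 15.5% of all shared regions. Among the higher was the Chd2 promoter, at 50.2 and 55.2 in WT, against 71.5 and 76.3 in cKO. Its difference was 0.95 ± 0.080 (SE, limma, adjusted p = 0.00599), and it did not pass on ranks (limma, adjusted p = 0.118). Among the lower was a promoter region of Supt16, at 46.0 and 58.3 in WT, against 29.3 and 40.6 in cKO. Its difference was -0.50 ± 0.094 (SE, limma, adjusted p = 0.0218).

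Gained regions lay at Nasp, Spty2d1, Dnajc9, Trim28 and Sp100. NASP keeps a soluble pool of H3 and H4, and the region 4.3 kb upstream of its gene was at 41.2 and 48.6 in cKO. DNAJC9 is a heat shock co-chaperone that binds H3-H4, and the gained region beyond its gene was at 8.63 and 22.7. Spty2d1, which encodes an H3-H4 chaperone of transcribed genes, had 2 gained regions, 1 of them at the promoter of Gm9999 (6.60 and 13.5) and the other upstream (24.1 and 35.5), and 1 lost one in an exon (14.1 and 44.5 in WT). The 2 gained introns of Trim28, for the corepressor KAP1, were weak (0.835 and 25.5, and 5.29 and 7.31), as was that of Sp100, for a nuclear body protein (17.9 and 14.4). Lost regions lay at Chd1, the gene of a remodeller of transcribed chromatin (14.1 and 7.82 in WT), and at Morc3, for an ATPase of nuclear bodies (5.69 and 16.1). Others were at the promoters of Tm9sf1 near Ipo4, whose product imports H3-H4 into the nucleus (2.35 and 6.28), and of Slc39a4 near Tonsl, whose product binds newly placed H4 (5.31 and 17.1). All of these were below percentile 50 in the libraries that had them.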

How the data were processed

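ATAC-seq peaks were analysed for 2 WT and 2 cKO BMDM libraries, grouped by the sample titles. Per the labels and the study's methods, the authors aligned paired reads to mm10 with Bowtie2 2.5.1 and ran Genrich with default settings once per library, without pooling. Read filters, duplicate removal and the transposase shift are not given in the sources used here. The authors' deposited signal is the area under each peak's significance curve, at least 200 in each list. The deposited −log10 p-value is that of the summit, and the deposited score is capped, with 82.6% to 87.2% of peaks at the limit, and was only inspected. Depth is unknown, and no interval for counting error is given.

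Peaks overlapping by at least 1 bp were merged. Windows were gene bodies plus 10 kb, and promoters ran from 1 kb upstream to 100 bp downstream of a start site of the GENCODE vM21 basic annotation. Percentiles used the strongest peak of a region. Differences in shared regions were tested with limma 3.58.1 (R 4.3.3) on normal scores of the within-list rank, with Benjamini-Hochberg adjustment over 44820 regions, and the code was tested on simulated data. An exact permutation test of 2 against 2 libraries cannot go below p = 0.333 and was not used. The alternative of quantile-normalized log2 area was fitted the same way. Sequences are RefSeq (GRCm38.p6, which is mm10), and all regions lay within its chromosomes. UTR sequence is not printed.

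The 10 genes, the 27 further genes, the motifs and the alternatives were chosen with earlier results of these data known. All 10 genes are named, as are further genes with a gained or lost region and neighbours whose promoter holds a named region. Chd2 and Supt16 are named for promoter regions that passed on log2 area, and Xist, Firre and Lyz2 as checks. p-values measure the spread between these 4 libraries. For the cell type check, 1 marker gene is not reported.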

Additional observations from a re-analysis of the deposited data

How the results depend on the processing

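Calls rested on the peak limit and the scale, and the cause was not tested where no construction is named. At the 10 genes, regions above the median area of their list, a set with fewer peaks, left 0 gained and 0 lost. Lists of equal length gave 2 lost regions, with 1 shared region higher and 3 lower. Summed area gave 1 higher and 2 lower, and quantile-normalized log2 area 2 and 3. Without single libraries, 1 to 3 regions were gained, 4 to 7 lost, 0 higher and 0 to 1 lower. Leaving out a library loosens the rule for gained and lost regions, so those counts tend to rise by construction. The call difference at H3f3a exon 2, -100 percentage points, was 0 with the stricter limit and with equal lengths. The main H3f3b region differed by -11.5 with equal lengths (limma, adjusted p = 0.0491) and -0.71 on log2 area, which made 1 promoter past the test under each, and by -7.86 to -13.4 without single libraries. At its other start site the difference was 12.6 (equal lengths), 9.27 (summed area) and 0.33 (log2 area), all past the test, but -0.167 for −log10 p and -0.455 per base pair, and it ranged from -0.338 to 13.5 without single libraries. Other reversals were -0.0365 at Hira and -0.334 at Ubn1 without cKO replicate 2 (up to 0.301 and 1.65 without other single libraries), -12.0 at Daxx and -2.52 at Atrx per base pair, 0.120 at Cabin1 on summed area and 1.45 at H3f3b when the promoter spanned 2.5 kb either way, which takes in the Unk promoter. At the 27 further genes, gained and lost regions numbered 1 and 1 (stricter), 3 and 3 (gene body only) and 3 lost (5 kb), with 2 lost at equal lengths, and 8 to 14 gained and 5 to 10 lost without single libraries. Higher and lower shared regions there numbered 11 and 4 (equal lengths), 14 and 5 (summed area), 16 and 8 (log2 area), 0 and 2 (−log10 p), and 0 higher and 0 to 3 lower without single libraries, the 3 without cKO replicate 2. Of 141 recomputed differences with a test, 125 kept their direction and their side of the threshold, and 69 of 100 recomputed counts stayed within 1.5 times the reported one. The main fit called 0 of 44820 regions, so each difference started short of the threshold and keeping its side says little. The replicate block again called 0 regions and gave -10.7 at H3f3b (limma, adjusted p = 0.0828). The difference of replicate 1 minus replicate 2 correlated between genotypes at r = 0.219 over 44820 regions, which in 2 pairs does not show pairing. With 2 libraries a group and unknown depth, small differences cannot be resolved, and on ranks larger ones did not pass either.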

Other observations

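Promoters of neighbouring genes lay in the windows of the H3.3 and chaperone genes and served as a local comparison. Next to H3f3b, the promoter of Galk1, for galactokinase, was at 33.7 and 35.4 in WT, against 13.9 and 21.9 in cKO (limma, adjusted p = 0.154), below WT in both cKO libraries. On the other side of H3f3b, the Unk promoter was at 88.5 and 90.5 in WT, against 89.9 and 92.0 in cKO, with overlapping values. The lower value at the main H3f3b region thus lay between a neighbour that was also lower and one that was not. Past Asf1b, the promoter of Prkaca, for a catalytic subunit of protein kinase A, was at 93.7 and 94.2 in WT, against 91.3 and 92.5 in cKO.

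Beyond Daxx, the promoters of Zbtb22 (89.5 and 90.5 in WT, 90.0 and 89.5 in cKO) and Tapbp, for the antigen presentation protein tapasin (67.8 and 70.4 in WT, 70.6 and 70.4 in cKO), differed little between genotypes. The Ddt promoter upstream of Cabin1 was at 66.8 and 74.5 in WT, against 76.0 and 77.7 in cKO, and passed on log2 area with 0.35 ± 0.091 (SE, limma, adjusted p = 0.0483), in the opposite direction to the Cabin1 introns. The promoter of Fmc1, past Ubn2, was strong in every library (99.4 and 96.8 in WT, 97.3 and 99.3 in cKO), with overlapping groups.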
